A study of Mus musculus with 4 samples.

Results

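The genes examined here encode the enzymes that write, copy and remove DNA methylation in mouse embryonic stem cells, and factors that shield imprinted methylation. They are Dnmt1, Dnmt3a, Dnmt3b, Dnmt3l, Uhrf1, Tet1, Tet2, Tet3, Zfp57 and Dppa3. The 10 genes were chosen by symbol, and each matched 1 row among the 54838 gene identifiers of the count tables. All 10 passed the filter on low counts that left 15191 genes to test. RNA was sequenced from 2 libraries of a knock-in line and 2 libraries of its wild-type parent, with 18946731 to 26553998 reads counted in genes per library. The knock-in line, MLC460, was derived from E14 cells (E14Tg2a.4, strain 129/Ola), and CRISPR/Cas9 was used to place monomeric enhanced green fluorescent protein at the N-terminus of endogenous p300, a histone acetyltransferase and transcriptional coactivator. The wild-type cells were the E14 cells themselves, and all 4 cultures grew on gelatin with fetal bovine serum and leukemia inhibitory factor. MLC460 was the only knock-in line measured, so the effect of the tag and any change that arose while the line was derived cannot be told apart. The labels call the replicates biological and do not say whether they were separate cultures, so p-values measure the spread between these libraries.

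Methylation of cytosine in CpG dinucleotides is set by the de novo methyltransferases DNMT3A and DNMT3B, with DNMT3L as their catalytically inactive cofactor. It is copied after replication by DNMT1, which UHRF1 guides to hemimethylated CpG. TET enzymes oxidise 5-methylcytosine and so open the way to its removal. At imprinted loci, 1 parental copy keeps germline methylation through the embryo, and ZFP57, a KRAB zinc finger protein that recruits TRIM28, binds a methylated TGCCGC hexamer there. DPPA3, also called STELLA, protects the maternal genome in the zygote from TET3-driven demethylation.

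Promoter sequences are shown first, from RefSeq tables on build GRCm38.p6, as windows that reach from 250 bases before to 50 bases after an annotated start. Grb10, Mest and Plagl1 are the 3 imprinted genes that passed the test between the lines, and 1 window of each is given with every TGCCGC, or its reverse complement GCGGCA, in capitals. The table holds 6 windows of these genes, and those printed were picked because they hold the hexamer. The Grb10 window shown is chr11:12037371-12037670 on the minus strand, the Mest window chr6:30737800-30738099 on the plus strand and the Plagl1 window chr10:13090582-13090881 on the plus strand.
Grb10: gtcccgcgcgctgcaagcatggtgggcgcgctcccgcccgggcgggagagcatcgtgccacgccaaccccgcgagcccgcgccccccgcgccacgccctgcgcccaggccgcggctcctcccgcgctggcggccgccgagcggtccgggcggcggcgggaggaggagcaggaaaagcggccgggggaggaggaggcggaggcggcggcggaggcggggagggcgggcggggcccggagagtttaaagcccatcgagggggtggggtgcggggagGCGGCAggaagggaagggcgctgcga
Mest: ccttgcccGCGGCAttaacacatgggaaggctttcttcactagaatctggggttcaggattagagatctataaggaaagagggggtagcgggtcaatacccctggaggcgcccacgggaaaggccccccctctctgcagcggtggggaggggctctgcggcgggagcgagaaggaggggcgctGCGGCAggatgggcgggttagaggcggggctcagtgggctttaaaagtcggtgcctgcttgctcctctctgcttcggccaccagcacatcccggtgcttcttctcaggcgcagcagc
Plagl1: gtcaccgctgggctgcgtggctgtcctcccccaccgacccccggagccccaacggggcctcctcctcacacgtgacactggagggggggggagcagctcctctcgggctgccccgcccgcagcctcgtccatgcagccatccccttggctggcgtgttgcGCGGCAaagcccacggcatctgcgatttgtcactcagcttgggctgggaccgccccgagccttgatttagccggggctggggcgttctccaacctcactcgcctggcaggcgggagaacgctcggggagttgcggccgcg
The hexamer occurred 2 times in this Mest window and 1 time each in the Grb10 and Plagl1 windows shown. Of the 6 windows 4 held it, and 2 of these, both of Mest, overlap. The other Grb10 window (chr11:12027922-12028221) and the third Mest window (chr6:30733256-30733555) held 0. Of all 32851 promoter windows of 300 bases, 11.6% held it on either strand, and of the 10320 windows with at least the 17 CpG of the Mest window, 26.2% did. The Grb10 window shown has 45 CpG and the Plagl1 window 26, while the other Grb10 window has 9 and the third Mest window 8. A match is a string of letters and not a bound site, and a part of the hexamer in the results was not tested. Whether a window lies in the methylated region of its imprinted locus was not examined.

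Among the methylation genes themselves, 9 had a window in the table, 18 windows in all, and Dppa3 had none. Their promoters ranged widely in CpG content. Tet2 had 57 CpG in its window and Dnmt3a up to 47, above 99.8% and 98.6% of all windows. Dnmt3l had 3 to 6 CpG in its 3 windows and Zfp57 had 4 to 9, against a median of 7 over all windows. The hexamer was found in windows of Dnmt3a and Tet3. The CpG-richest window of Dnmt3l (chr10:78042037-78042336, plus strand) and the window of Tet3 (chr6:83441629-83441928, minus strand) are printed because these members had lower values in both knock-in libraries than in both wild-type libraries. CpG dinucleotides are in capitals.
Dnmt3l: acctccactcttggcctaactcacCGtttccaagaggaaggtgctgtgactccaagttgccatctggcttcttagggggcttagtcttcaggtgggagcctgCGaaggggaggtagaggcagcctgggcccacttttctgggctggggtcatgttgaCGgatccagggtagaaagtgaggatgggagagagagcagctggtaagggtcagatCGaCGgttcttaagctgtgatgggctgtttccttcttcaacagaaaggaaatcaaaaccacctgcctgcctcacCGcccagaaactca
Tet3: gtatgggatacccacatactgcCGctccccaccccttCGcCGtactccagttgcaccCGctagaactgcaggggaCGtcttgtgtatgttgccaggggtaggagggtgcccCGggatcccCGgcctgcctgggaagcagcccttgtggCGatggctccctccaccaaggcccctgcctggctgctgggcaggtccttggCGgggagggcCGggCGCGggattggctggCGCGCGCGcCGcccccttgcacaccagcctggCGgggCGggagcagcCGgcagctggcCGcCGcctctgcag
The Dnmt3l window holds 6 CpG and the Tet3 window 22.

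The libraries carried the RNA of embryonic stem cells. The 12 stem cell markers, among them Tdgf1 and Dppa5a, summed to 7920 and 7390 CPM in knock-in and 7130 and 7144 CPM in wild-type cells, where CPM is a count relative to library size, scaled by TMM. Markers of primitive endoderm summed to 11.8 to 12.8 CPM in knock-in and 14.5 to 14.8 CPM in wild-type cells. Fibroblast and feeder markers summed to 21.9 and 23.7 CPM in knock-in and 35.9 and 38.8 CPM in wild-type cells. Of those 8 markers 4 were tested, the 4 had a median log2 ratio of -0.91 between the lines, and Lum and Twist2 were at 0 in all 4 libraries. Formative and primed markers, a list that includes Dnmt3b, had a median of -0.31 over 9 tested. In edgeR 0 were called, against 0.0658% of all genes, and 3 were lower at an unadjusted p under 0.05, against 7.4%. The primed median was -0.056 with a correction for GC content, -0.063 without wild-type 1 and -0.24 without wild-type 2. Naive markers had a median of 0.013 over 11 tested, and of 0.15 with the same correction. The part of the feeder and primed markers in the results was not tested. Ep300, the tagged gene, had 181 and 210 CPM in knock-in and 209 and 210 CPM in wild-type cells, and the log2 ratio of knock-in to wild-type was -0.10 ± 0.15 (SE, adjusted p = 0.804 in edgeR), and 0.0074 with a correction for GC content. Wild-type 2 stood apart from the other libraries. The Spearman rho between its deviation from the mean of the other 3 and the GC content of the transcript was 0.65 over 15181 genes, which are not independent replicates, and the same rho was -0.27 to -0.43 in the other libraries. For this reason values with a correction for GC content, and without each wild-type library, are given beside many of the results.

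Of the 10 methylation genes, 0 were called between knock-in and wild-type cells by edgeR (quasi-likelihood, adjusted p under 0.05), against 10 of 15191 genes overall (0.0658%). At an unadjusted p under 0.05 there was 1 member, Tet3, against 10.9% of all genes. DESeq2 also called 0 of the 10, against 0.81% of all genes, and so did edgeR after the GC correction, against 1.18%. The median log2 fold change over the 10 was 0.069, beside 0.00098 over all genes tested. With the GC correction these medians were 0.14 and 0.059. The median of the 10 was 0.0445 without wild-type 1 and 0.115 without wild-type 2. The 2 lines did not overlap for 5 members, 3 higher and 2 lower in knock-in cells, against 47.4% of all genes. After the GC correction the lines did not overlap for 7 members, 5 higher and 2 lower, against 50.1% of all genes (31.6% higher and 18.6% lower). All log2 fold changes are of knock-in over wild-type, and ± after one is its standard error (SE) from edgeR.

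**Figure D1:**
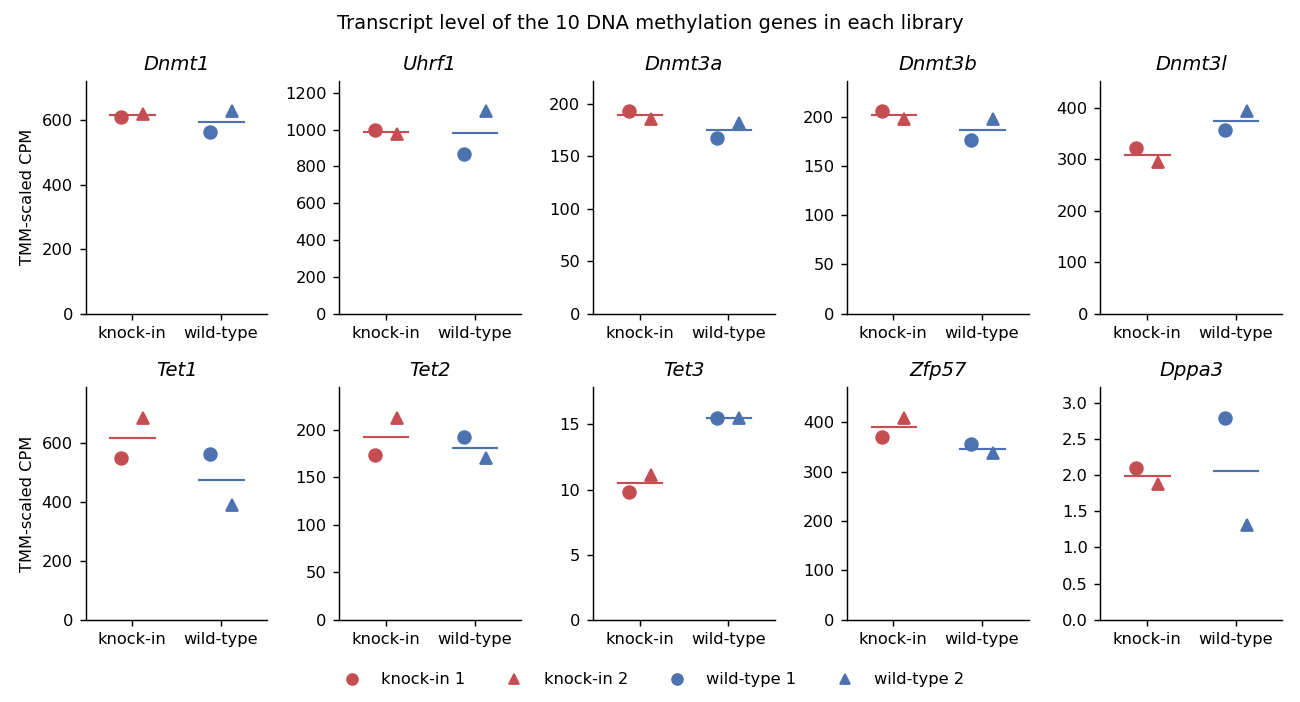
Transcript level (TMM-scaled CPM, axes from 0) of each of the 10 genes in each library, knock-in left in red and wild-type right in blue, with circles for replicate 1, triangles for replicate 2 and lines at the means of 2. The knock-in points lie below both wild-type points for Tet3 and Dnmt3l, and the wild-type points lie far apart for Tet1 and Dppa3.

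The maintenance genes were abundant in both lines, and neither passed the test. Dnmt1 (ENSMUSG00000004099, GRCm38 chromosome 9, 20907209 to 20959888), the maintenance methyltransferase, had 612 and 619 CPM in knock-in libraries, against 563 and 628 CPM in wild-type libraries. The knock-in values lay between the wild-type values. For Dnmt1 the log2 fold change came to 0.047 ± 0.14 (SE), with a 95% interval of -0.28 to 0.37 and an adjusted p of 0.916 in edgeR. With the GC correction it came to 0.23 ± 0.12 (adjusted p = 0.337), and both knock-in libraries lay above both wild-type libraries. Leaving out wild-type 1 gave -0.028. Uhrf1 (ENSMUSG00000001228, chromosome 17, 56303321 to 56323486), which recruits DNMT1, had 999 and 974 CPM in knock-in libraries, against 865 and 1099 CPM in wild-type libraries. Here too the wild-type pair enclosed the knock-in pair, and the difference on the log2 scale was 0.0067 ± 0.16, with a 95% interval of -0.36 to 0.37 and an adjusted p of 0.991. Its sign changed with the wild-type library used. The value was -0.15 when wild-type 1 was left out and 0.175 when wild-type 2 was, and the GC correction gave 0.19 ± 0.13 (adjusted p = 0.491). A copy, Gm5648, matches 1590 bases of the 3586-base Uhrf1 transcript at 98.3% identity and drew 89 reads in all 4 libraries together. Reads that fit both were not assigned to either. Per kilobase of merged exons, Uhrf1 stood at 2.83 and 2.73 times the level of Dnmt1 in knock-in libraries and at 2.66 and 3.03 times in wild-type libraries.

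The genes of the de novo enzymes did not pass the test, and neither did that of their cofactor, whose values were lower in both knock-in libraries. Dnmt3a (ENSMUSG00000020661, chromosome 12, 3806007 to 3914443) had 193 and 186 CPM in knock-in libraries, against 167 and 182 CPM in wild-type libraries. Dnmt3b (ENSMUSG00000027478, chromosome 2, 153649450 to 153687730) had 206 and 198.3 CPM in knock-in libraries, against 176 and 198.0 CPM in wild-type libraries. For both genes the knock-in libraries were the higher, with wild-type 2 just below knock-in 2 in Dnmt3b. On the log2 scale Dnmt3a differed by 0.12 ± 0.14, with a 95% interval of -0.21 to 0.44 and an adjusted p of 0.762 in edgeR. Dnmt3b differed by 0.11 ± 0.15, with a 95% interval of -0.22 to 0.44 and an adjusted p of 0.778. With the GC correction the values were 0.25 for Dnmt3a and 0.28 for Dnmt3b (adjusted p = 0.262 and 0.224). Their 95% intervals, before adjustment over all genes, were then 0.013 to 0.49 and 0.039 to 0.52. Leaving out wild-type 1 gave 0.058 for Dnmt3a and 0.031 for Dnmt3b, and leaving out wild-type 2 gave 0.165 and 0.185.

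Dnmt3l (ENSMUSG00000000730, chromosome 10, 78041947 to 78063622) had 323 and 296 CPM in knock-in libraries, against 357 and 393 CPM in wild-type libraries. Both knock-in libraries lay below both wild-type libraries. The fitted difference was -0.28 ± 0.15 on the log2 scale, with a 95% interval of -0.61 to 0.049 and an adjusted p of 0.489. Leaving out wild-type 1 gave -0.35, and the test then passed (adjusted p = 0.0058), but 32.1% of all genes did so in that fit, whose only wild-type library is the one that deviates with GC content. Leaving out wild-type 2 gave -0.22 (adjusted p = 0.275), and the GC correction gave -0.11 (adjusted p = 0.679).

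Dnmt3l was also set against its partners within each library. Per kilobase of merged exons, Dnmt3l stood at 2.08 and 1.98 times the sum of Dnmt3a and Dnmt3b in knock-in libraries, against 2.68 and 2.65 times in wild-type libraries. The groups did not overlap, and the mean ratio in knock-in cells was 76.2% of that in wild-type cells. The exact permutation test over the 4 libraries gave p = 0.333 (two-sided), which is the smallest that 2 against 2 allow. After the GC correction the ratios were 2.09 and 1.98 in knock-in libraries, against 2.69 and 2.62 in wild-type libraries. The 3 genes have transcripts of like GC content (51.9% for Dnmt3a, 53.1% for Dnmt3b and 53.3% for Dnmt3l). This ratio was chosen after its values were seen. Dnmt3b stood at 3.48 times Dnmt3a in each knock-in library and at 3.43 and 3.54 times in wild-type libraries.

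Within the pool of the 4 DNMT genes, expressed as shares of the summed CPM per kilobase, Dnmt3l was the largest part in every library. It made up 44.5% and 42.5% of the pool in knock-in libraries, against 49.7% and 49.4% in wild-type libraries, a difference of -6.06 points. Dnmt1 made up 35.1% ± 1.32 in knock-in and 31.9% ± 0.12 in wild-type cells (SD, n = 2 each). Dnmt3b made up 16.6% ± 0.062 in knock-in and 14.5% ± 0.14 in wild-type cells, and Dnmt3a 4.79% ± 0.016 in knock-in and 4.15% ± 0.055 in wild-type cells. Shares of 1 pool sum to 100%, so these differences are not independent, and each gave the smallest exact permutation p (0.333). The summed level of the pool was 243 and 233 CPM per kilobase in knock-in libraries, against 240 and 266 in wild-type libraries. After the GC correction both knock-in libraries were the higher, with 261 and 244, against 234 and 242 in wild-type libraries.

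**Figure D2:**
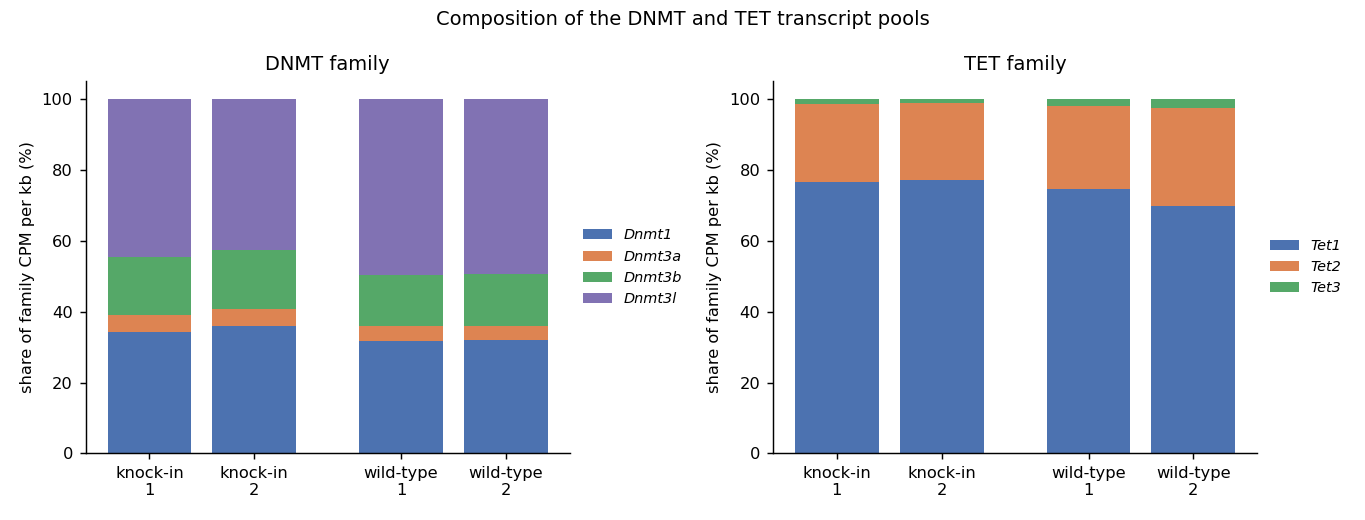
Share (%) of each gene in the summed CPM per kilobase of merged exons of its family, DNMT left and TET right, with 1 stacked bar for each library, knock-in before wild-type. The Dnmt3l segment is 42.5% to 44.5% in knock-in and 49.4% to 49.7% in wild-type libraries, and Tet3 is a sliver of 1.16% to 2.56%.

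Among the TET dioxygenases Tet1 was the most abundant and Tet3 the scarcest in all 4 libraries, and none passed the test. Tet1 (ENSMUSG00000047146, chromosome 10, 62804570 to 62908996), the main TET gene of embryonic stem cells, had 549 and 687 CPM in knock-in libraries, against 562 and 391 CPM in wild-type libraries. The groups overlapped, since knock-in 1 lay below wild-type 1. Tet1 had a log2 fold change of 0.38 ± 0.20, with a 95% interval of -0.074 to 0.83 and an adjusted p of 0.495. The value depended on the wild-type library: leaving out wild-type 2 gave 0.12, and leaving out wild-type 1 gave 0.66. In the latter fit the only wild-type library is the one that deviates with GC content. With the GC correction, leaving out wild-type 2 gave 0.197 and leaving out wild-type 1 gave 0.303. The Tet1 transcript has the lowest GC content of the 10 (43.7%), and after the GC correction its levels were 529 and 642 CPM in knock-in libraries, against 516 and 473 CPM in wild-type libraries. The corrected difference was 0.24 ± 0.13 on the log2 scale (adjusted p = 0.361).

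Tet2 (ENSMUSG00000040943, chromosome 3, 133463679 to 133545139) had 173 and 213 CPM in knock-in libraries, against 192 and 170 CPM in wild-type libraries. The groups overlapped, and Tet2 differed by 0.090 ± 0.16 on the log2 scale, with a 95% interval of -0.27 to 0.45 and an adjusted p of 0.843. Its sign turned when 1 library was left out, to -0.063 for knock-in 2 and to -0.0084 for wild-type 2.

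Tet3 (ENSMUSG00000034832, chromosome 6, 83362373 to 83459084), the TET enzyme best known from the oocyte and zygote, had 9.81 and 11.1 CPM in knock-in libraries, against 15.47 and 15.53 CPM in wild-type libraries. These rest on 239 and 208 reads in knock-in libraries and 426 and 342 reads in wild-type libraries. The exact Poisson 95% intervals, which cover counting error only, were 8.61 to 11.1 and 9.68 to 12.8 CPM in knock-in libraries, against 14.0 to 17 and 13.9 to 17.3 CPM in wild-type libraries. No knock-in interval reached a wild-type interval. Tet3 had a log2 fold change of -0.57 ± 0.19, with a 95% interval of -1.0 to -0.13. Its unadjusted p was 0.0159 in edgeR, and it did not pass over all genes (adjusted p = 0.383). In size it exceeded 85.8% of the absolute log2 fold changes of all genes tested.

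The Tet3 difference kept its sign in each of the 18 alternative settings, while its call varied. Leaving out wild-type 1 gave -0.57 and a call (adjusted p = 0.00501, with 32.1% of all genes called). Leaving out wild-type 2 gave -0.58 and a call (adjusted p = 0.0205, with 4.39% of all genes called). Leaving out a knock-in library gave -0.497 for knock-in 1 and -0.655 for knock-in 2, and no call (adjusted p = 1.00 each). With the GC correction the difference was -0.40 ± 0.15, with a 95% interval of -0.73 to -0.066 and an adjusted p of 0.214. In the TET pool, Tet3 made up 1.27% and 1.16% in knock-in libraries, against 1.91% and 2.56% in wild-type libraries. Tet1 made up 76.6% and 77.0% in knock-in libraries, against 74.7% and 69.7% in wild-type libraries, and Tet2 22.1% and 21.8% in knock-in libraries, against 23.4% and 27.8% in wild-type libraries.

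The imprint-protecting factors stood far apart in level, at 97.2 CPM per kilobase of merged exons for Zfp57 and 2.27 for Dppa3 over the 4 libraries, and neither passed the test. Zfp57 (ENSMUSG00000036036, chromosome 17, 37001163 to 37010635) had 370 and 409 CPM in knock-in libraries, against 356 and 337 CPM in wild-type libraries. Both knock-in libraries lay above both wild-type libraries. On the log2 scale Zfp57 differed by 0.17 ± 0.14, with a 95% interval of -0.15 to 0.49 and an adjusted p of 0.648. After the GC correction the groups overlapped, with 366 and 394 CPM in knock-in libraries, against 332 and 380 CPM in wild-type libraries, and the difference was 0.093 ± 0.12 (adjusted p = 0.732).

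Dppa3 (ENSMUSG00000046323, chromosome 6, 122626410 to 122630272) had 2.09 and 1.87 CPM in knock-in libraries, against 2.80 and 1.32 CPM in wild-type libraries. The wild-type libraries differed more from each other than either did from the knock-in libraries. The values rest on 51 and 35 reads in knock-in libraries and 77 and 29 reads in wild-type libraries. Dppa3 had a log2 fold change of -0.066 ± 0.40, with a 95% interval of -0.96 to 0.83 and an adjusted p of 0.959. The value was 0.60 when wild-type 1 was left out and -0.50 when wild-type 2 was. Counting error alone gave exact Poisson 95% intervals of 2.21 to 3.5 CPM in wild-type 1 and 0.882 to 1.89 CPM in wild-type 2, which do not overlap. A pseudogene, Dppa3-ps, matches 451 bases of the 833-base Dppa3 transcript at 98.2% identity, and reads that fit both were not assigned, so the level of Dppa3 is uncertain. In bulk RNA, fewer cells with a transcript and less transcript in each cell cannot be told apart.

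**Figure D3:**
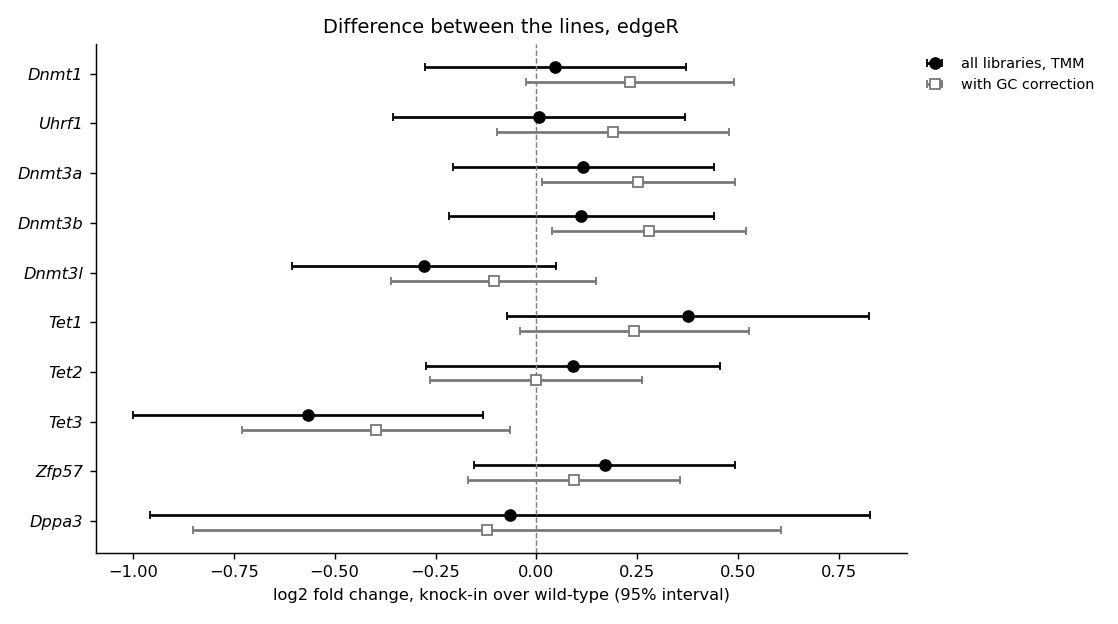
Log2 fold change of each gene, knock-in over wild-type (x axis), with 95% intervals from edgeR, for all 4 libraries (black circles) and with the GC correction (open squares). The interval of Tet3 lies below 0 in both fits (-1.0 to -0.13 and -0.73 to -0.066) before adjustment over all genes, and that of Dppa3 is the widest. Only with the GC correction, the intervals of Dnmt3a (0.013 to 0.49) and Dnmt3b (0.039 to 0.52) lie above 0, also before adjustment.

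Ordered by CPM per kilobase of merged exons, averaged over the 4 libraries, the levels were 231 for Uhrf1, 114 for Dnmt3l, 97.2 for Zfp57, 82.0 for Dnmt1, 38.1 for Dnmt3b, 35.4 for Tet1, 11.1 for Tet2, 10.9 for Dnmt3a, 2.27 for Dppa3 and 0.78 for Tet3. Uhrf1 stood above 98.9% of all genes tested on this scale, and Tet3 above 22%. Neighbours whose libraries overlapped were Dnmt3l with Zfp57, Dnmt3b with Tet1, and Tet2 with Dnmt3a. Dnmt3l and Zfp57 were close in knock-in cells (103 ± 6.37 and 103 ± 7.31 CPM per kilobase) and apart in wild-type cells (125.5 ± 8.65 and 91.5 ± 3.43 CPM per kilobase), with SD and n = 2 for each. With the longest transcript as the length the order was the same.

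Partners of this machinery, in 6 lists, were not called in the main fit on all 4 libraries. Without the low-count filter 2 were called, against 1.31% of all genes in that fit. With the replicate number as a block 1 was called, against 1.3%, and with a crossed block 2, against 3.35%. Of 69 genes tested, edgeR called 0 and DESeq2 0, and at an unadjusted p under 0.05 there were 5 higher and 1 lower, against 3.54% higher and 7.4% lower of all genes. Leaving out wild-type 1 gave 28 calls in the 6 lists, in a fit that called 32.1% of all genes, and leaving out wild-type 2 gave 1. Their median log2 fold change was 0.068, beside 0.00098 over all genes, and was 0.14 with the GC correction, 0.158 without wild-type 1 and 0.052 without wild-type 2. Of the 2 most abundant genes of each list, Cbx5, Usp7, Nsd1, Mbd3, Ogt, Mat2a and Ahcy were called when wild-type 1 was left out, and none when wild-type 2 was. The list of TRIM28 and partners of KRAB zinc finger repressors had a median of 0.33, and 8 of its 12 genes were higher in both knock-in libraries than in both wild-type libraries, against 23.4% of all genes. Its median was 0.52 without wild-type 1, 0.16 without wild-type 2 and 0.20 with the GC correction. Trim28, the gene of the corepressor that ZFP57 recruits, had 2942 and 2737 CPM in knock-in libraries, against 2464 and 3359 CPM in wild-type libraries (log2 fold change -0.036 ± 0.18). The value was 0.23 with the GC correction, -0.24 without wild-type 1 and 0.19 without wild-type 2. Cbx5, the gene of a heterochromatin protein, differed by 0.36 ± 0.18 (adjusted p = 0.476), and by 0.19 with the GC correction and 0.12 without wild-type 2.

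The partners of maintenance methylation had a median of 0.31 over 7 genes, which was 0.49 without wild-type 1 and 0.15 without wild-type 2. The replication clamp gene Pcna had a log2 fold change of 0.075 ± 0.16, and Usp7, the gene of a deubiquitinase that stabilises UHRF1 and DNMT1, one of 0.33 ± 0.16 (adjusted p = 0.467). Without wild-type 2 these were 0.23 for Pcna and 0.17 for Usp7, and with the GC correction -0.039 and 0.24. Chromatin factors that steer de novo methylation had a median of 0.091, with 0.47 ± 0.16 (adjusted p = 0.387) for the histone H3 lysine 36 methyltransferase gene Nsd1 and 0.026 for Ehmt2, the gene of G9a. Nsd1 had 0.43 and Ehmt2 0.29 with the GC correction, and without wild-type 2 they had 0.30 and 0.21. Methyl-CpG readers had a median of -0.014, with -0.13 for Mbd3 and -0.11 for Mbd6. These signs turned with the GC correction, to 0.077 for the median, 0.14 for Mbd3 and 0.15 for Mbd6, and Mbd3 had 0.16 without wild-type 2. Demethylation and base excision repair genes had a median of 0.024, with -0.015 for Parp1 and 0.25 for Ogt, the gene of a glycosyltransferase that binds TET proteins. The median was 0.14 with the GC correction, where Parp1 had 0.14 and Ogt 0.081, and Ogt had 0.041 without wild-type 2. Genes of S-adenosylmethionine and alpha-ketoglutarate metabolism had a median of 0.0044, with 0.36 ± 0.15 for Mat2a, which makes S-adenosylmethionine, and -0.12 for Ahcy. The median of this list was 0.20 without wild-type 1 and 0.088 with the GC correction. Without wild-type 2 Mat2a had 0.215 and Ahcy 0.19, and with the GC correction they had 0.19 and 0.014.

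Alongside these levels, 3 imprinted genes passed the test. Grb10, a maternally expressed gene for a growth-restraining adaptor, had 589 and 594 CPM in knock-in libraries, against 107 and 118 CPM in wild-type libraries (log2 fold change 2.39 ± 0.15, adjusted p = 0.00077). Mest, paternally expressed, had 10.2 and 8.46 CPM in knock-in libraries, against 41.0 and 54.3 CPM in wild-type libraries (log2 fold change -2.35 ± 0.21, adjusted p = 0.00906). Plagl1, a paternally expressed zinc finger gene, had 1.72 and 1.82 CPM in knock-in libraries, against 11.6 and 8.36 CPM in wild-type libraries (log2 fold change -2.49 ± 0.28, adjusted p = 0.0204). All 3 kept their direction and their call in each of the 18 alternative settings. The 95% intervals of Dnmt1, Uhrf1, Dnmt3a, Dnmt3b, Dnmt3l, Tet1, Tet2 and Zfp57 all lay within -0.61 to 0.83 on the log2 scale. Those of Tet3 (-1.0 to -0.13) and Dppa3 (-0.96 to 0.83) reached lower.

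Imprinted genes were grouped by the parent known to express them. These lists were chosen with earlier results of these data known, so their counts are not an independent test. Of 23 tested paternally expressed genes, 0 rose and 2 fell, against 0.00658% that rose and 0.0592% that fell among all genes. Their median log2 fold change was -0.34, with 2 higher and 11 lower in both knock-in libraries, against 23.4% and 23.9% of all genes. Of 18 tested maternally expressed genes, 1 rose and 0 fell, with a median of -0.033 and 7 higher and 4 lower in both knock-in libraries, against 23.4% and 23.9% of all genes. Without wild-type 1 the medians were -0.044 for the paternal and 0.0085 for the maternal list, and without wild-type 2 they were -0.38 and 0.10. Each of those fits rested on 1 wild-type library. With the GC correction the counts were 0 higher and 3 lower for the paternal list and 2 higher and 0 lower for the maternal list, against 0.329% higher and 0.856% lower of all genes. The difference between the lists was not tested. Methylation itself was not measured in these libraries, so the state of the imprinted regions is not known from them.

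**Figure D4:**
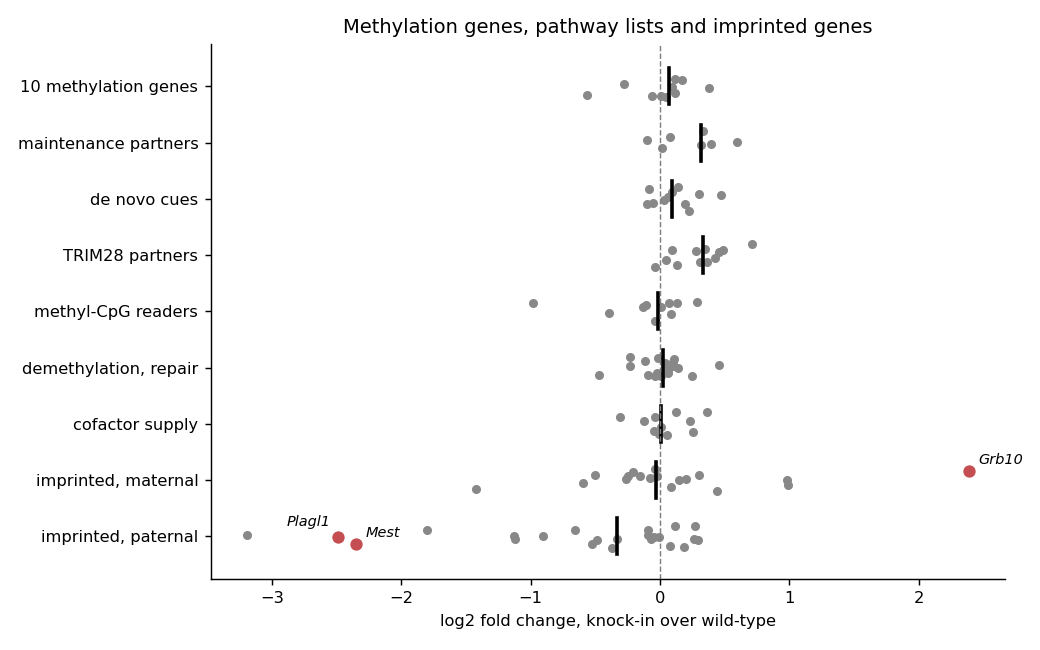
Log2 fold change, knock-in over wild-type (x axis), of each tested gene in the methylation set, 6 lists of partners and 2 lists of imprinted genes, with red points for an edgeR adjusted p under 0.05 and black bars at the list medians. The 10 methylation genes lie between -0.57 and 0.38, while Grb10 lies at 2.39, Mest at -2.35 and Plagl1 at -2.49.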

How the data were processed

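Each deposited table held raw counts of reads per gene for 1 library, in an unstranded and 2 single-strand columns. Trimming with Trim Galore, alignment with STAR 2.5.3a and build GRCm38 (mm10) are named in the submitters' processing notes, and the annotation release is not given in the sources used here. Symbols, coordinates, exon lengths and GC content came from GENCODE M21 on GRCm38, which matched 54809 of 54838 identifiers. The strand columns split evenly (50.2% to 50.5% in the reverse column), so the unstranded column was used, and reads of a gene and an antisense partner cannot be told apart. Of all reads, 5.96% to 6.38% were ambiguous between genes and 3.80% to 4.46% mapped to several places. These and the other summary rows were left out.

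Counts were fitted with edgeR 4.0.16 in R 4.3.3 (TMM scaling, filterByExpr with a minimum count of 10, quasi-likelihood F test, Benjamini-Hochberg over 15191 genes, threshold 0.05) on genotype alone. The standard error is the absolute log2 fold change over the square root of F. For the GC correction, the departure of each gene's log2 CPM in a library from its 4-library mean was taken. In each library these departures were modelled across genes on the GC content of the longest transcript (natural spline, 5 degrees of freedom). The fitted values were entered as an offset. Near copies were sought with blastn (at least 100 bases at 95% identity). The test was tried on simulated data for this comparison (14891 genes), where 63% of 100 planted 2-fold and 91% of 100 planted 4-fold changes were recovered, with 9 false calls. The simulated counts had the same dispersion for all genes and lacked the deviation of wild-type 2 with GC content. These rates therefore need not hold for the real libraries. Named were the 10 genes, Ep300 and, from each list, up to 3 called genes per direction or the 2 most abundant where none was called. The members and lists were chosen with earlier results of these data known. Same-numbered replicates did not deviate together (r = -0.12 between replicates 1 of the lines, across genes), so the numbers were not treated as pairs.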

Additional observations from a re-analysis of the deposited data

How the results depend on the processing

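The count of genes called between the lines moved with the processing. It was 10 with all libraries, 354 without the low-count filter, 180 with the GC correction (50 higher and 130 lower, against 1 and 9), 123 with DESeq2 1.42.0 and 16 to 5015 when 1 library was left out. With the GC correction it was 94 and 64 without knock-in 1 and 2, and 1567 and 646 without wild-type 1 and 2. With the replicate number as a block it was 197, and 403 with the GC correction as well. A crossed pairing, added after the data were seen, gave 509. The methylation genes called numbered 0 in each of these except without wild-type 1, with 3 (Dnmt3l, Tet1 and Tet3), and without wild-type 2, with 1 (Tet3). When 1 library was left out, the lone library of its group was assumed to vary like the other pair. The cause of these differences was not tested. The median log2 fold change of the 10 genes ranged from 0.023 to 0.20 over the alternatives. Dnmt3a, Dnmt3b, Dnmt3l, Tet1, Tet3 and Zfp57 kept their sign in each alternative, and Dnmt1, Uhrf1, Tet2 and Dppa3 did not. The sign says little where a value is near 0. Zfp57 came down to 0.00013 ± 0.14 (SE) and Dnmt3l to -0.014 ± 0.20, while Dnmt1 kept its sign in 17 of 18 alternatives. The Dnmt3a share difference of 0.64 points was 0.84 with the longest transcript as length and 0.585 and 0.702 in the single-strand columns, and that of Dnmt3b, 2.19 points, was 1.98, 2.62 and 1.79. In the 6 lists of partners, with 69 genes, the called genes numbered 0 to 2 except without wild-type 1, with 28, and 9 with the GC correction as well. Dppa3 and Tet3 had the fewest reads of the 10 genes (29 to 77 and 208 to 426 per library), and so the largest relative counting error.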

Other observations

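Germline genes known to be held by promoter methylation form a further list, chosen with earlier results of these data known. Methylation itself was not measured. Of 16 tested, 1 fell and 0 rose in edgeR's test, against 0.0592% and 0.00658% of all genes, with a median log2 fold change of -0.34. The gene that fell was the X-linked homeobox gene Rhox5, with 7.19 and 5.84 CPM in knock-in libraries, against 23.2 and 28.1 CPM in wild-type libraries (log2 fold change -1.97 ± 0.21, SE, adjusted p = 0.0204). In 8 of the 16 both knock-in libraries lay below both wild-type libraries, against 23.9% of all genes. The list median was -0.22 without wild-type 1, -0.33 without wild-type 2 and -0.37 with the GC correction. The 2-cell-like markers, a state in which embryonic stem cells resemble the early embryo, had 0 calls among 8 tested (1 higher at an unadjusted p under 0.05 in edgeR, 0 by DESeq2), against 0.0658% of all genes, 3.54% and 0.81%, and a median of 0.41, which was 0.48 without wild-type 1, 0.18 without wild-type 2 and 0.28 with the GC correction.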
